A study of Mus musculus with 2 samples.

Results

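The genes described here were 10 genes that mark T cells, their killing machinery and the checkpoints that restrain them: Cd3e, Cd8a, Cd4, Foxp3, Gzmb, Prf1, Pdcd1, Ctla4, Lag3 and Cd274. They were chosen by name, with earlier results of these data known, and all 10 were found among the 19465 genes of both count matrices. Their levels were compared between tumor, tumor edge and neural tissue in 2 cerebellar sections.

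T cells read peptides on other cells through the T cell receptor, whose signal passes through the CD3 chains; CD8 and CD4 are the coreceptors of cytotoxic and helper T cells. Activated cytotoxic T cells kill with perforin and granzymes. Chronic stimulation brings inhibitory receptors to their surface, and ligands on myeloid and tumor cells engage these checkpoint receptors, which is why antibodies against them are used as cancer therapy.

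Both sections were formalin-fixed, paraffin-embedded cerebellum from C57BL/6 mice that carried a tumor grown from injected HP breast tumor organoids, and both mice were labelled as untreated. HP stands for mammary tumors with activating HER2 V777L and PIK3CA H1047R mutations, switched on by Cre-expressing adenovirus in the mammary gland of B6 mice before organoids were made. The title of section 1 names HP-F1 +cre organoids and that of section 2 names HP-B6 +cre organoids, whereas the cell line field of both reads B6-HP. No tumor-free cerebellum was among the samples, so the neural tissue served as the background and came from the same mouse as the tumor beside it.

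RNA was measured with Visium CytAssist probes in spots that can each hold several cells. Sections 1 and 2 held 63986887 and 71878333 unique molecular identifiers (UMIs), and 3315 and 3999 spots were kept. Spots were assigned by neural, epithelial and matrix marker genes, none of which was among the 10 genes. Section 1 had 727 tumor, 241 edge and 2347 neural spots, and section 2 had 893, 364 and 2680. Edge spots lay within 2 array steps of the other tissue. Depth differed by region, with a median of 55158 and 40379 UMIs per tumor spot against 7523 and 9614.5 per neural spot, so levels are given as counts per 1000000 UMIs (CPM) scaled by trimmed mean of M values (TMM).

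The tumors of the 2 sections stood apart. The 8 epithelial markers, among them Epcam and Krt8, summed to 67.9 CPM in the tumor of section 1 and to 11171 CPM in that of section 2. The 9 matrix markers, among them Col1a1, summed to 78118 and 4859 CPM. The tumor of section 1 thus went against its label as a breast epithelial tumor by these markers, and every level below is given for each section on its own.

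**Figure D1:**
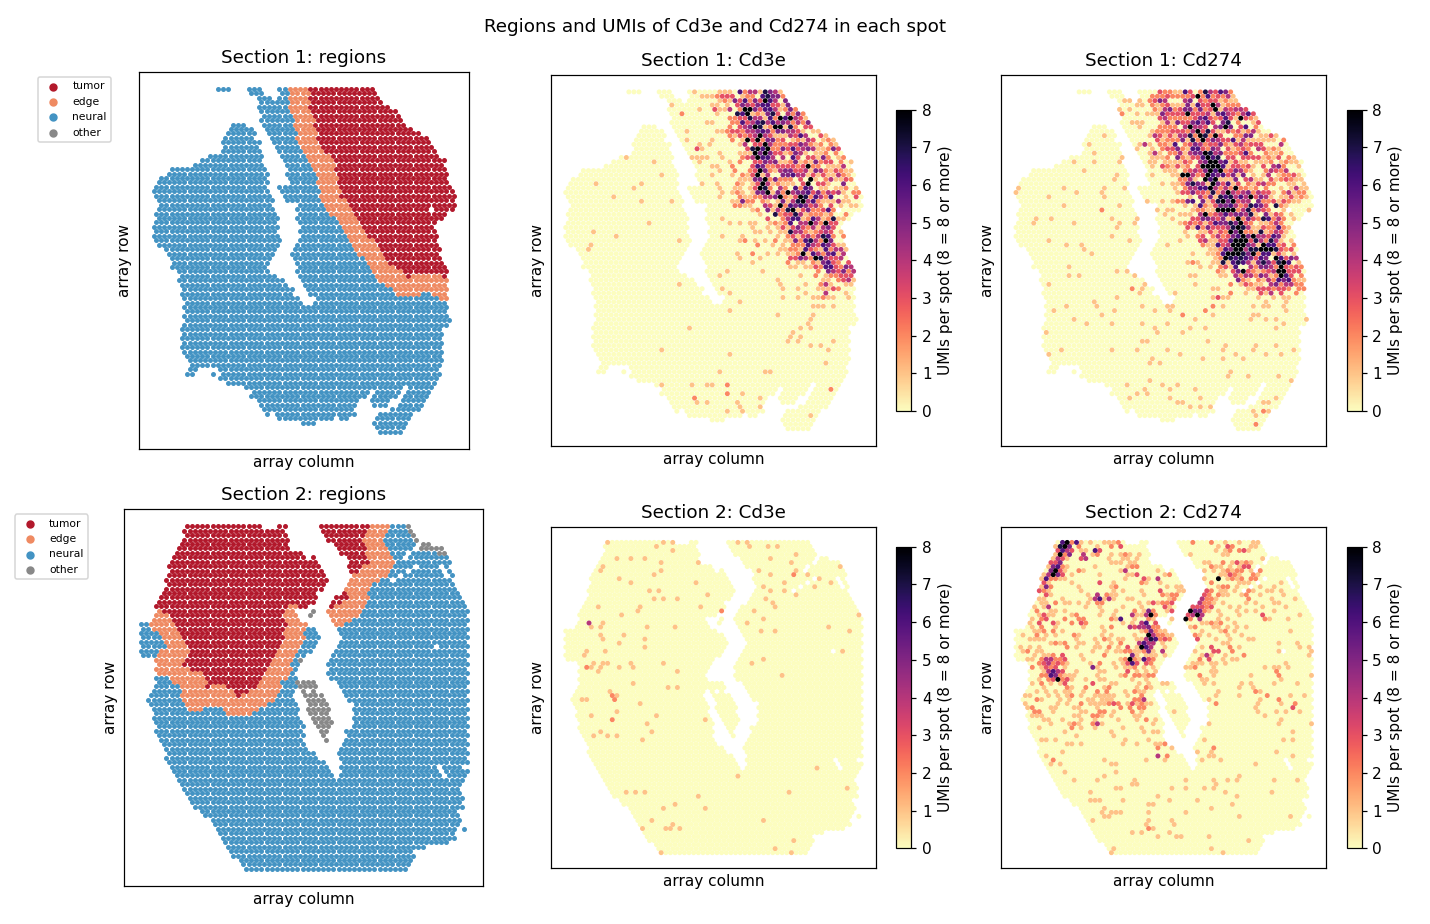
Maps of both sections with 1 point per spot, placed by array column and row. The left panels show the regions, with spots outside the 3 regions in gray, and the other panels show the UMIs of Cd3e and of Cd274 in each spot. Cd3e filled the tumor of section 1 (2141 UMIs) and was scattered at 54 UMIs in the tumor of section 2, whereas Cd274 was dense along the border in section 1 and in patches in section 2.

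The 10 genes together reached 326 CPM in the tumor, 245 CPM at the edge and 55.0 CPM in the neural tissue of section 1. In section 2 they reached 39.7, 118 and 48.0 CPM. Without Cd274, the remaining genes summed to 258, 126 and 41.4 CPM in section 1 and to 17.0, 43.2 and 32.5 CPM in section 2. By these sums the tumor was the richest region of section 1 and the poorest region of section 2. In the tumor of section 2, however, 5 of the 10 genes were at or below the level of olfactory receptor genes given in the next paragraph. Lag3 alone had 3.14 CPM there and 10.04 CPM in the neural tissue. Fewer T cells and less RNA per T cell cannot be told apart in spots, and the part of such low-level signal in the sums was not tested.

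A guide to the lowest readable level came from 970 olfactory receptor genes, a set chosen after the values were seen. Their 95th percentile lay between 1.78 and 3.50 CPM over the 6 combinations of section and region. All 10 genes were above it in the tumor and at the edge of section 1, and 7 were above it in the neural tissue. In the tumor of section 2, Cd3e, Foxp3, Gzmb, Prf1 and Ctla4 were at or below it. Values at that level are close to what genes with no known role here gave, and no order is read from them. The median of the olfactory receptor genes was itself lower in the tumor than in the neural tissue, at 1.25 and 1.75 CPM in section 1 and 0.809 and 1.19 CPM in section 2.

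Each gene was tested with edgeR's quasi-likelihood test on UMIs summed per section and region, with the section as a block and Benjamini-Hochberg adjustment over 19231 genes. Between tumor and neural tissue, 0 of the 10 genes passed an adjusted p of 0.05, whereas 30.7% of all genes did. 1 of the 10, Cd274, had an unadjusted p below 0.05, against 45.2% of all genes. DESeq2 called 2 of the 10, Cd3e and Cd274, beside 7275 of all genes. The ratio of tumor to neural tissue had opposite signs in the 2 sections for 9 of the 10 genes, and for 21.2% of all genes. For 4 of these 9, Cd3e, Gzmb, Prf1 and Ctla4, both values of section 2 were at or below the olfactory receptor level. Their sign there is not read, which leaves Cd8a, Cd4, Foxp3, Pdcd1 and Lag3. Of these, Foxp3 was at or below that level in the tumor of section 2. The median of the olfactory receptor genes was also lower in that tumor than in its neural tissue, at 0.809 against 1.19 CPM. The part of that shift in the signs of section 2 was not tested. The ratio was above 1 on the log2 scale for 9 of the 10 genes in section 1, beside 17.4% of all genes, and for 0 in section 2, beside 17.2%. The median log2 fold change of the 10 genes was 0.95, beside -0.12 over all genes. With 1 section of each organoid label, the difference between the sections was not tested.

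Between edge and neural tissue, 1 of the 10 genes was called, Cd274, beside 8.46% of all genes in either direction. The ratio was above 0 in both sections for 7 of the 10 genes, beside 35.7% of all genes, and the median log2 fold change was 0.84, beside -0.04 over all genes. Between tumor and edge, 0 of the 10 genes were called, beside 3.12% of all genes, and 0 had an unadjusted p below 0.05, against 21.1% of all genes. DESeq2 called 0 of the 10 there, beside 1853 of all genes. In that comparison 8 of the 10 genes had opposite signs in the sections, beside 33.5% of all genes, and for Gzmb and Prf1 among them both values of section 2 were at or below the olfactory receptor level.

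**Figure D2:**
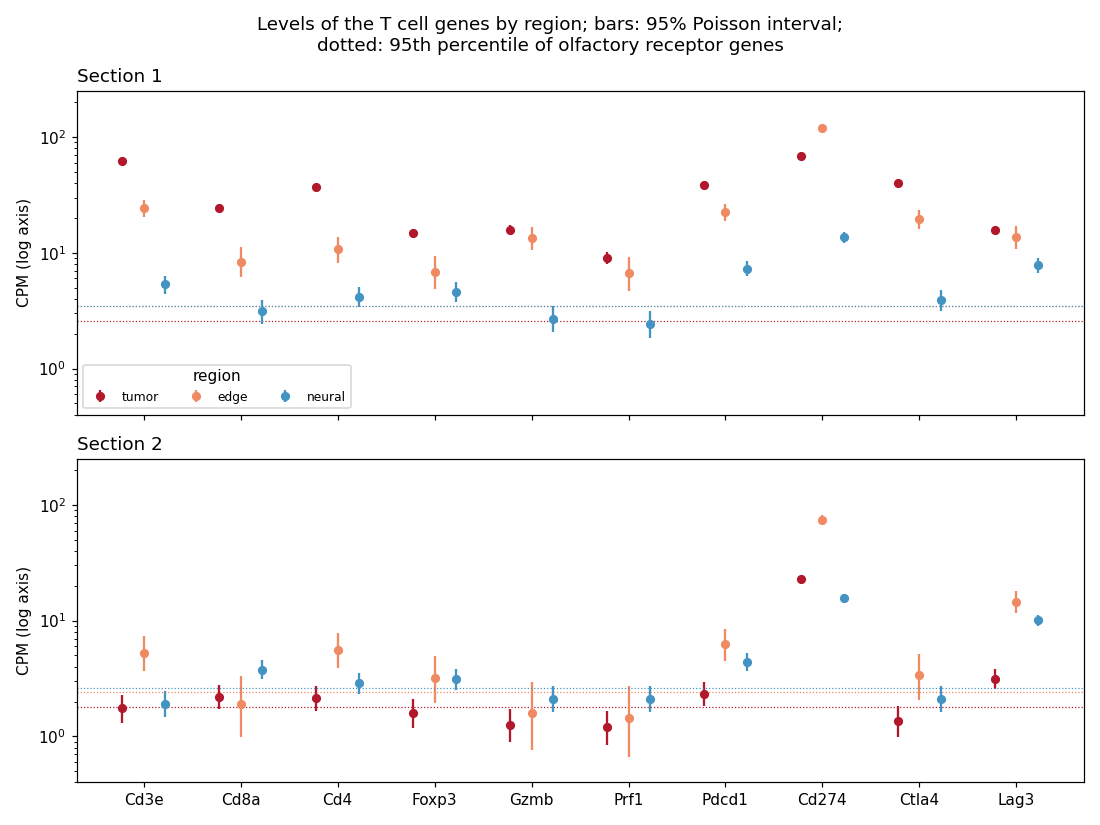
Level of each gene in CPM on a log axis, with section 1 above and section 2 below. Points are the UMIs of a region summed over its spots, bars are 95% exact Poisson intervals that cover counting error only, and dotted lines are the 95th percentile of 970 olfactory receptor genes in each region. In section 1 all tumor and edge points lie above the dotted lines, and in section 2 Cd274 lies far above them in every region.

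Cd3e encodes a chain of the CD3 complex and marks T cells of every kind. It reached 62.1 CPM (2141 UMIs) in the tumor of section 1, 24.2 CPM (138) at the edge and 5.34 CPM (125) in the neural tissue. In section 2 the values were 1.75 CPM (54), 5.28 CPM (33) and 1.92 CPM (58). The tumor level of section 1 was above every other value of the gene, and the tumor level of section 2 had a Poisson interval of 1.31 to 2.28 CPM that overlapped that of its neural tissue, 1.46 to 2.48. The log2 ratio of tumor to neural tissue was 3.42 in section 1 and -0.11 in section 2, and the edgeR fit gave 2.01 with a standard error of 1.03 (adjusted p = 0.197, edgeR's quasi-likelihood test with Benjamini-Hochberg adjustment).

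The same gene was spread widely through the tumor of section 1. After spots were thinned to 5000 UMIs, 22.7% of tumor spots, 11.3% of edge spots and 2.55% of neural spots held a Cd3e UMI. In section 2 the shares were 1.59%, 3.20% and 1.07%. Without thinning they were 85.3%, 38.6% and 4.86% in section 1 and 5.94%, 7.14% and 2.13% in section 2. The tumor of section 1 held 89.1% of that section's Cd3e UMIs and 60.7% of all its UMIs, whereas the tumor of section 2 held 37.0% and 49.3%. Cd3e was at or below the olfactory receptor level in the tumor and the neural tissue of section 2, so that 37.0% is not read as a depletion.

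Cd8a, a chain of the coreceptor of cytotoxic T cells that some dendritic cells also carry, had 24.2 CPM (833 UMIs) in the tumor, 8.41 CPM (48) at the edge and 3.12 CPM (73) in the neural tissue of section 1. In section 2 it had 2.20 CPM (68), 1.92 CPM (12) and 3.78 CPM (114). Cd4, the coreceptor of helper and regulatory T cells that macrophages can also make, had 37.3 CPM (1287), 10.7 CPM (61) and 4.19 CPM (98) in section 1. In section 2 Cd4 had 2.14 CPM (66), 5.60 CPM (35) and 2.88 CPM (87). Both coreceptors followed Cd3e in section 1, with log2 ratios of tumor to neural tissue of 2.77 and 3.01, and of -0.66 and -0.36 in section 2.

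A difference in the balance of the coreceptors between the tumor and the edge of section 1 was not resolved, since the edge held 48 Cd8a and 61 Cd4 UMIs. Cd8a made up 39.3% of Cd8a and Cd4 UMIs in the tumor of section 1 (95% exact binomial interval 37.2 to 41.4), 44.0% at the edge (34.5 to 53.9) and 42.7% in the neural tissue (35.2 to 50.5). The 3 intervals overlapped, but Cd8a was at or below the olfactory receptor level in that neural tissue, so its share there is not read. In section 2 the shares were 50.7%, 25.5% and 56.7% and rested on 68, 12 and 114 Cd8a UMIs, and Cd8a was at or below the olfactory receptor level at that edge.

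Foxp3, the transcription factor of regulatory T cells, had 14.8 CPM (510 UMIs) in the tumor, 6.83 CPM (39) at the edge and 4.61 CPM (108) in the neural tissue of section 1. Section 2 had 1.59 CPM (49), 3.20 CPM (20) and 3.11 CPM (94). In section 1 the tumor stood above the other regions beyond counting error, with an interval of 13.5 to 16.1 CPM, and in section 2 it stood above neither. For every 100 Cd3e UMIs there were 23.8 Foxp3 UMIs in that tumor and 28.3 at its edge.

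The cytotoxic effectors were Gzmb, a serine protease of cytotoxic granules, and Prf1, the pore-forming protein that lets granzymes into target cells. Gzmb had 15.9 CPM (547 UMIs) in the tumor, 13.3 CPM (76) at the edge and 2.69 CPM (63) in the neural tissue of section 1. The levels of section 2 were 1.26 CPM (39), 1.60 CPM (10) and 2.12 CPM (64), all at or below the olfactory receptor level. Prf1 had 9.02 CPM (311), 6.66 CPM (38) and 2.44 CPM (57) in section 1 and 1.20 CPM (37), 1.44 CPM (9) and 2.12 CPM (64) in section 2. The pair was thus readable in the tumor and at the edge of section 1 and in no region of section 2.

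For both genes the tumor and edge intervals of section 1 overlapped, at 14.6 to 17.3 and 10.5 to 16.7 CPM for Gzmb. Per 100 Cd3e UMIs there were 25.5 Gzmb UMIs in the tumor and 55.1 at the edge of section 1, and 14.5 and 27.5 Prf1 UMIs. Cd3e itself was lower at that edge than in the tumor.

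The start regions of these effectors and of Cd274 are shown because Gzmb and Prf1 had overlapping intervals in the tumor and at the edge of section 1, while Cd274 was the gene called at the edge. Windows of 300 bases, 250 before and 50 after the start site that the table uses, were available from RefSeq (GRCm38.p6) for 8 of the 10 genes, and for Cd4 and Lag3 none was available here. RefSeq places Gzmb at chr14:56258836-56262334, Prf1 at chr10:61297751-61304684 and Cd274 at chr19:29362107-29388095. The start site of the window is the first base of the annotated gene for Gzmb and lies inside the annotated gene for Prf1 and Cd274, and the whole Cd274 window lies inside it. Capitals mark matches on either strand to TGTGGT (RUNX), TGACGT (core of the cAMP response element), TTCNNNGAA (STAT dimer) and GAAAC (core of interferon regulatory factor sites), and no matches overlap in the windows shown.
Gzmb, chr14:56262285-56262584, minus strand: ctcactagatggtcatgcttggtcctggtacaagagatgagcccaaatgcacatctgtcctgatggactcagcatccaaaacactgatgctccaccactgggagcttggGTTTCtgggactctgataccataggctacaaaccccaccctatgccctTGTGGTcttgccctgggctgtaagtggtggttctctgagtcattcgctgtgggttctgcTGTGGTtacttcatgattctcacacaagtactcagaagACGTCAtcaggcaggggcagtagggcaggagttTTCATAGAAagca
Prf1, chr10:61297586-61297885, plus strand: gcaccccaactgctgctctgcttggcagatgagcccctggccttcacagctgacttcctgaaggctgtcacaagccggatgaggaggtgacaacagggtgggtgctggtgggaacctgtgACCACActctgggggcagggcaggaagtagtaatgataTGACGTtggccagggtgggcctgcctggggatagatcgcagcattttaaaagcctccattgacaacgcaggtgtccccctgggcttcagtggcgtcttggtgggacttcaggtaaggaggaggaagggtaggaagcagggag
Cd274, chr19:29367188-29367487, plus strand: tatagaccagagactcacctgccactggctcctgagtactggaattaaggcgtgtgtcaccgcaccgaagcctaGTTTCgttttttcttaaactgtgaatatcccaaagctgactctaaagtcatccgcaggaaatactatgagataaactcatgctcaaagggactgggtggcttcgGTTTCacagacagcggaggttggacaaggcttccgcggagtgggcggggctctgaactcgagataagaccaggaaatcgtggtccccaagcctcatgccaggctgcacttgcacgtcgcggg
TGTGGT was found 2 times in the Gzmb window, starting 93 and 34 bases before the start site of the window, and 1 time in the Prf1 window, 130 bases before its start site; 16.8% of 32851 such windows hold it. TGACGT was found once in each of these windows and in 7.51% of all windows. The Cd274 window held GAAAC 2 times, starting 176 and 72 bases before its start site, and none of the other motifs; GAAAC was also found 1 time in the Gzmb window, 141 bases before its start site, and 45% of all windows hold it. TTCNNNGAA was found in the Gzmb window, starting at base 38 counted from its start site, and is held by 8.3% of all windows. These matches describe letters and no binding was measured.

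Pdcd1 encodes the inhibitory receptor that binds the Cd274 product. It had 38.9 CPM (1341 UMIs) in the tumor, 22.4 CPM (128) at the edge and 7.31 CPM (171) in the neural tissue of section 1. In section 2 it had 2.33 CPM (72), 6.24 CPM (39) and 4.41 CPM (133). The tumor had the highest level in section 1 and the lowest in section 2, and the fitted log2 fold change between tumor and neural tissue was 0.89 with a standard error of 0.89.

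Ctla4, the inhibitory receptor that competes with CD28 for its ligands and is abundant on regulatory T cells, had 39.7 CPM (1370 UMIs), 19.6 CPM (112) and 3.89 CPM (91) in the tumor, edge and neural tissue of section 1. Ctla4 in section 2 had 1.36 CPM (42), 3.36 CPM (21) and 2.12 CPM (64). In section 1 it followed Cd3e, with 64.0 Ctla4 UMIs per 100 Cd3e UMIs in the tumor and 81.2 at the edge. Its log2 ratio of tumor to neural tissue was 3.20 in section 1 and -0.50 in section 2, where both values were at or below the olfactory receptor level.

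Lag3, an inhibitory receptor that binds major histocompatibility complex (MHC) class II, differed from Pdcd1 and Ctla4 in that its edge levels were alike in both sections. It had 15.7 CPM (541 UMIs), 13.7 CPM (78) and 7.77 CPM (182) in the tumor, edge and neural tissue of section 1. In section 2 it had 3.14 CPM (97), 14.6 CPM (91) and 10.04 CPM (303). The edge levels of the sections overlapped in their intervals, 10.8 to 17.1 and 11.7 to 17.9 CPM, although Cd3e differed between the same edges (20.3 to 28.6 against 3.63 to 7.41 CPM). Neural tissue held 61.5% of the Lag3 UMIs of section 2 and 40.8% of all its UMIs. A share above 40.8% was not particular to Lag3. Cd8a had 58.2%, Prf1 57.1%, Foxp3 56.3%, Gzmb 56.1%, Pdcd1 54.3%, Ctla4 49.2% and Cd4 44.8%, whereas Cd3e had 39.7% and Cd274 28.5%. The olfactory receptor genes had medians of 25, 6 and 36 UMIs in the tumor, edge and neural tissue of section 2, so they too lay mostly in neural tissue. Cd3e, Gzmb, Prf1 and Ctla4 were at or below their level in that neural tissue. Shares of genes near that level are thus not read as a lean to neural tissue. The fitted log2 fold change between tumor and neural tissue was -0.16 with a standard error of 0.77.

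Cd274 encodes the ligand of the Pdcd1 product and is made by macrophages and tumor cells as well as T cells, often under interferon. It had 68.2 CPM (2350 UMIs) in the tumor, 119 CPM (678) at the edge and 13.7 CPM (320) in the neural tissue of section 1. In section 2 it had 22.8 CPM (704), 74.5 CPM (466) and 15.5 CPM (469). The edge was the highest region and the neural tissue the lowest in both sections, and within each section no 2 intervals overlapped. The edge held 20.3% and 28.3% of the Cd274 UMIs of sections 1 and 2, and 8.02% and 9.01% of all UMIs.

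The log2 ratio of edge to neural tissue was 3.07 in section 1 and 2.23 in section 2. The fitted log2 fold change was 2.63 with a standard error of 0.47, which passed the test (adjusted p = 0.0467, edgeR's quasi-likelihood test with Benjamini-Hochberg adjustment, n = 2 sections). The adjusted p lay near the threshold: over 12 fits it ranged from 6.99e-06 with DESeq2 to 0.139 with a border from k-means clusters, and it passed in 8 of them. The log2 fold change itself stayed between 2.23 and 2.74. Between tumor and neural tissue the fitted log2 fold change of Cd274 was 1.44 (adjusted p = 0.0794) and between tumor and edge it was -1.19 (adjusted p = 0.24), neither of which passed edgeR's test. After thinning to 5000 UMIs, 50.8% and 25.9% of edge spots held a Cd274 UMI, against 23.7% and 10.4% of tumor spots and 7.58% and 7.85% of neural spots. Without thinning the edge shares were 87.1% and 58.5%, the tumor shares 86.1% and 37.6%, and the neural shares 11.0% and 14.0%.

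**Figure D3:**
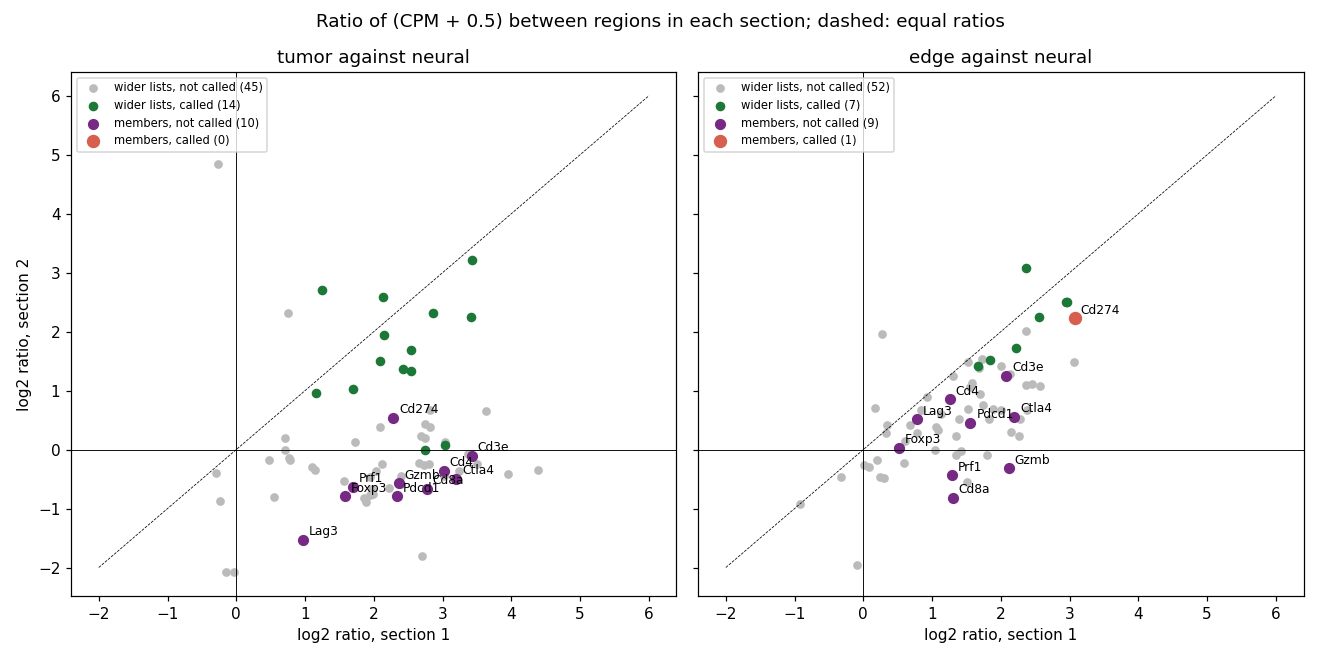
Log2 ratio of (CPM + 0.5) between regions, with section 1 on the horizontal axis and section 2 on the vertical axis; each point is a gene and the dashed line marks equal ratios. For tumor against neural tissue 9 of the 10 genes lie right of 0 and below 0, 4 of them with both section 2 values at or below the olfactory receptor level, and Cd274 alone lies above 0 on both axes, at 2.28 and 0.54. For edge against neural tissue Cd274 lies at 3.07 and 2.23, among the called genes of the wider lists.

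Macrophage markers followed Cd274 only in part. The 8 markers, among them Csf1r and C1qa, summed to 5924, 5392 and 1078 CPM in the tumor, edge and neural tissue of section 1 and to 1551, 4629 and 1172 CPM in section 2, and all 8 were above the olfactory receptor level in every region. Their sum was thus higher at the edge than in the neural tissue of both sections, as Cd274 was. In section 1 the sum was higher in the tumor than at the edge, whereas Cd274 was highest at the edge. The markers were not alike in this. Cd68 had 713, 1319 and 116 CPM in the tumor, edge and neural tissue of section 1, and Itgam had 167, 236 and 51.3 CPM. Both were also highest at the edge of section 2, at 840 and 201 CPM. Csf1r, Adgre1, C1qa, C1qb, Mrc1 and Ms4a7 were higher in the tumor than at the edge of section 1. The 5 natural killer cell markers summed to 35.1, 16.3 and 5.08 CPM in section 1 and to 3.04, 5.12 and 3.11 CPM in section 2. In the tumor of section 1, 3 were above the olfactory receptor level: Klrk1 (20.2 CPM), Klrd1 (5.51 CPM) and Klre1 (5.02 CPM). Ncr1 (2.38 CPM) and Klrb1c (1.94 CPM) were below it there. In every region of section 2, 0 were above it. No marker of either list was at 0 UMIs. The part of these cells in the levels of Cd274, Gzmb and Prf1 was not tested.

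Wider lists placed the 10 genes among 59 other genes of T cells or of cells that act on them. They were 19 of the T cell receptor and its signaling, 14 of effector function and 26 of checkpoints and costimulation. The last list includes genes that other cells make, such as Cd276, Lgals9, Pvr and Cd80. The lists were chosen with earlier results of these data known. Between tumor and neural tissue, 14 of the 59 rose in the tumor and 0 fell, beside 15% of all genes called higher. By list these were 3 of 19, 2 of 14 and 9 of 26. Without the section as a block 8 of the 59 were called, beside 4427 of all genes, 2000 of them higher. Between edge and neural tissue 7 rose at the edge and 0 fell, beside 4.33% of all genes called higher. With a border from k-means clusters 0 of the 59 and 0 of all genes were called in that comparison. Between tumor and edge 0 of the 59 were called, beside 3.12% of all genes, and 5 had an unadjusted p below 0.05, beside 21.1% of all genes. DESeq2 called 1 of the 59 there, beside 1853 of all genes. The median fitted log2 fold change of the 59 genes was 1.36 for tumor against neural tissue, beside -0.12 over all genes. The sections differed, with a median log2 ratio of 2.13 in section 1 and -0.17 in section 2. For edge against neural tissue the fitted median was 1.23, beside -0.04 over all genes, and the section medians were 1.53 and 0.67.

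The list of the receptor and its signaling differed between the sections. Its 19 genes summed to 567 CPM in the tumor and 74.8 CPM in the neural tissue of section 1, and to 61.2 and 53.4 CPM in section 2. All 19 had a log2 ratio of tumor to neural tissue above 1 in section 1, and 2 did in section 2. The checkpoint and costimulation list summed to 1124 and 782 CPM in the tumors and to 260 and 286 CPM in the neural tissue. In that list 18 of the 26 genes had a ratio above 1 in section 1 and 9 did in section 2.

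Several of the called genes are ligands or receptors that cells other than T cells make. Cd276, a checkpoint ligand of many tumor and stromal cells, had 106 and 69.4 CPM in the tumors against 9.31 and 7.03 CPM in the neural tissue, and rose in the tumor by 3.40 on the log2 scale (adjusted p = 0.0029, edgeR). It also rose at the edge by 2.47 (adjusted p = 0.0327, edgeR). Lgals9, a galectin that binds the checkpoint receptor Havcr2, had 161 and 135 CPM in the tumors against 37.5 and 47.1 CPM, a log2 fold change of 1.80. Its edge levels were 177 and 157 CPM, a log2 fold change of 1.98 against neural tissue. For these ligands both sections moved the same way.

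Among costimulatory and cytokine receptors, Tnfrsf9, a costimulatory receptor that marks recently activated T cells, had 17.3 and 11.2 CPM in the tumors against 1.97 and 1.86 CPM, a log2 fold change of 2.86. At the edge it had 18.7 and 12.8 CPM, a log2 fold change of 3.01. Tnfrsf18, abundant on regulatory T cells, had 24.2 and 6.18 CPM in the tumors against 4.10 and 2.09 CPM, a log2 fold change of 2.06. Il2ra, the high-affinity interleukin receptor chain of activated and regulatory T cells, had 23.4 and 7.86 CPM against 3.59 and 2.09 CPM, a log2 fold change of 2.30. Each of these was higher in both tumors than in the neural tissue beside them. In the tumor of section 2, however, Cd3e, Foxp3 and Ctla4 were at or below the olfactory receptor level. Which cells held these receptor transcripts was not tested. The Tnfrsf18 and Il2ra calls were lost without the section as a block, at adjusted p = 0.115 and 0.0603 in edgeR.

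Tnf, an inflammatory cytokine of macrophages and T cells, had 18.4 and 12.7 CPM in the tumors, 14.7 and 9.44 CPM at the edges and 3.76 and 2.95 CPM in the neural tissue. Its log2 fold changes against neural tissue were 2.19 and 1.82. Tcf7, a transcription factor of naive and memory T cells that other tissues also use, had 12.8 and 19.2 CPM in the tumors, 9.11 and 8.32 CPM at the edges and 2.52 and 2.78 CPM in the neural tissue, with log2 fold changes of 2.57 and 1.72. Il7r, an interleukin receptor of resting T cells, had 24.1 and 5.37 CPM in the tumors, 31.9 and 12.6 CPM at the edges and 3.72 and 1.82 CPM in the neural tissue, with log2 fold changes of 2.15 and 2.93. Its calls were lost without the section as a block, at adjusted p = 0.105 and 0.112 in edgeR. Cd80, a ligand of CD28 and CTLA4 on antigen-presenting cells, had 33.8 and 20.2 CPM in the tumors and 16.1 and 36.1 CPM at the edges. Its neural levels were 2.73 and 3.84 CPM, and its log2 fold changes against neural tissue were 3.09 in the tumor and 2.96 at the edge. Of these genes, Tnf and Tcf7 had higher CPM in the tumor than at the edge of both sections, a difference that did not pass the test.

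The calls of Cd247 and Cd96, singled out after their values were seen, rested on section 1. Cd247, a signaling chain of the T cell receptor, had log2 ratios of tumor to neural tissue of 3.04 in section 1 and 0.07 in section 2, where its tumor held 4 UMIs. Cd96, a receptor of T and natural killer cells, had a log2 ratio of 2.74 in section 1 and 0 UMIs in every region of section 2, which in the tumor allows up to 3 UMIs or 0.0846 CPM.

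Distance from the border was counted in array steps on either side, and CPM here are per UMI of the bin with no TMM scaling. On the tumor side of section 1, Cd3e had 28.3 CPM at 1 to 2 steps, 39.3 CPM at 3 to 5 steps, 64.5 CPM at 6 to 9 steps and 56.7 CPM from 10 steps on. On the neural side it went from 24.7 to 15.4, 8.62 and 4.18 CPM. Cd3e was thus higher from 6 steps inward than beside the border, and the intervals of the bins at 6 to 9 steps and from 10 steps on overlapped. In section 2 no bin was above 6.05 CPM, which was the tumor bin at 1 to 2 steps, and the intervals of that bin, 3.84 to 9.08 CPM, and of the tumor bin from 10 steps on, 0.983 to 2.14 CPM, did not overlap.

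Cd274 was highest beside the border in both sections. Its tumor side had 132, 79.8, 74.1 and 43.9 CPM with growing distance in section 1 and 82.6, 32.0, 12.2 and 19.4 CPM in section 2. Its neural side had 132, 48.0, 18.9 and 9.64 CPM in section 1 and 56.8, 44.0, 27.4 and 10.2 CPM in section 2. The macrophage markers on the tumor side of section 1 summed to 5647, 5013, 5494 and 5229 CPM, and those of section 2 were lower with distance, at 4472, 2207, 1423 and 1007 CPM. On the neural side the macrophage sums fell with distance in both sections, as Cd274 did. They were 6525, 4420, 2514 and 474 CPM in section 1 and 4465, 2820, 2284 and 806 CPM in section 2. The dependence of Cd274 on other cells was not tested.

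Without TMM scaling, the highest Lag3 bin of both sections was on the neural side. In section 1 its interval overlapped that of the innermost tumor bin. With TMM scaling Lag3 of section 1 was instead highest in the tumor, at 15.7 CPM against 13.7 CPM at the edge, so no order is read there. On the neural side Lag3 had 21.8, 20.5, 16.0 and 5.87 CPM with growing distance in section 1 and 20.2, 20.8, 16.4 and 7.87 CPM in section 2. The sections agreed within their Poisson intervals in the first 3 of these bins, while their Cd3e levels in the nearest bin were 24.7 and 3.74 CPM. On the tumor side Lag3 had 10.8, 8.61, 11.2 and 17.9 CPM in section 1 and 9.74, 4.24, 2.79 and 2.17 CPM in section 2. The 5 microglia markers, among them Tmem119 and P2ry12, summed on the neural side to 257, 317, 292 and 106 CPM in section 1 and to 194, 221, 235 and 154 CPM in section 2. On the tumor side they summed to 177, 143, 158 and 200 CPM in section 1 and to 118, 70.4, 51.4 and 34.0 CPM in section 2. The markers were not alike. With TMM scaling, Tmem119 had 130, 75.0 and 21.2 CPM in the tumor, edge and neural tissue of section 1. P2ry12, Sall1, Gpr34 and Siglech were lower in that tumor than in its neural tissue. The part of microglia in the Lag3 level was not tested.

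Pdcd1 had 23.8, 18.3, 9.03 and 6.61 CPM with growing distance on the neural side of section 1 and 7.10, 11.9, 3.46 and 3.63 CPM on that of section 2. Gzmb in section 1 had overlapping intervals on the tumor side, at 15.3, 11.7, 14.1 and 15.1 CPM, and went from 14.1 to 4.39 CPM between the first and second bin of the neural side. Foxp3 in section 1 had 8.80, 11.4, 17.2 and 11.5 CPM on the tumor side, with its highest bin at 6 to 9 steps.

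**Figure D4:**
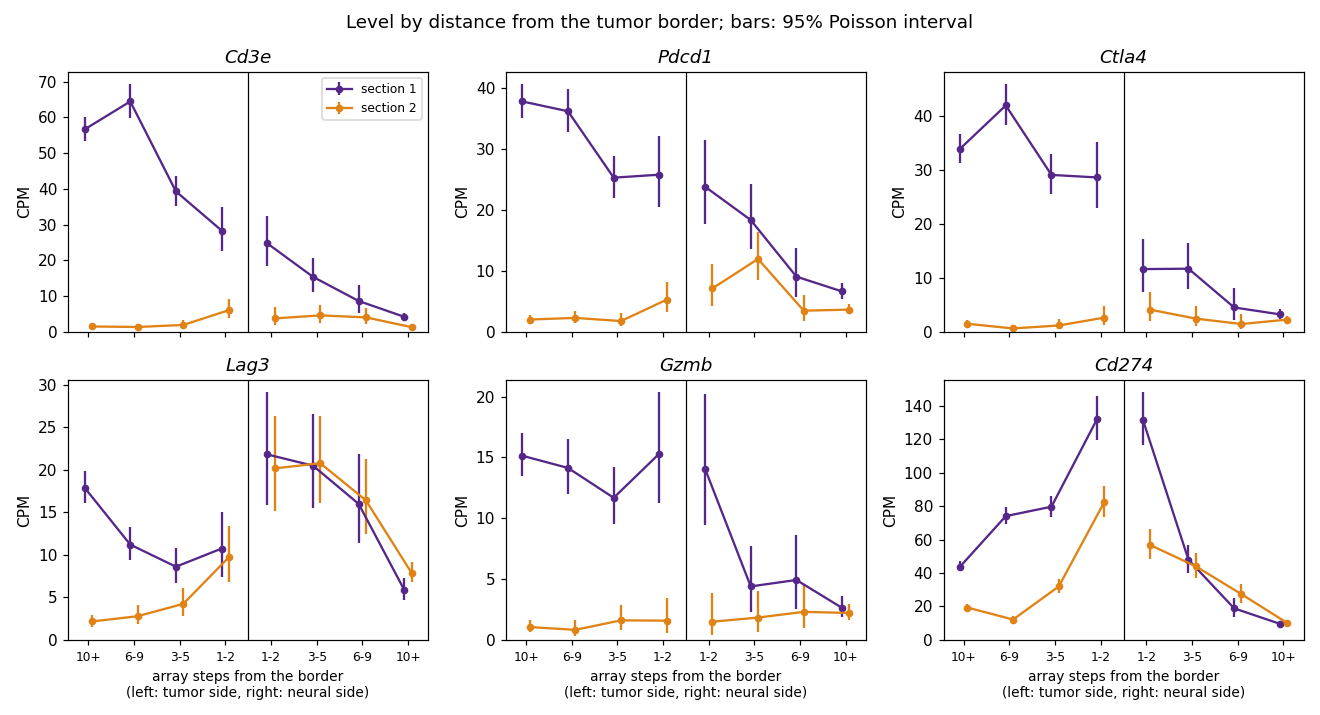
Level of 6 genes in CPM by array steps from the tumor border (vertical line), with the tumor side on the left and the neural side on the right; lines are the sections and bars are 95% exact Poisson intervals. Cd3e and Ctla4 are high inside the tumor of section 1, Cd274 is highest beside the border in both sections, and Lag3 is high on the neural side of both, at 21.8 and 20.2 CPM beside the border.

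Within the tumor of section 1 the genes were set against each other over 41 tiles of 4 array rows by 8 array columns. Cd3e ranged from 32.8 to 88.8 CPM over the tiles with a median of 53.9, Ctla4 from 6.73 to 58.9 CPM with a median of 36.3, and Cd274 from 19.7 to 111 CPM with a median of 50.2. The highest Spearman correlations were 0.65 between Cd3e and Ctla4 and 0.65 between Cd4 and Pdcd1. Cd274 had 0.49 with Ctla4, 0.42 with Cd3e and 0.53 with the UMIs of the tile, so depth varied with it. Gzmb and Prf1 had 0.14 and Cd8a and Cd4 had 0.09. With 547 Gzmb and 311 Prf1 UMIs in the whole tumor, counts per tile were low. Counting error lowers such correlations, so the low values are not read as genes that lay apart. The tiles share 1 library and its depth, and these values describe 1 tumor.

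Over all tiles of a section, 213 in section 1 and 258 in section 2, genes were ranked by the lower of their Spearman correlations in the 2 sections. By that rule the genes most like Cd3e among 11535 ranked were Lrrc25, H2-Aa, Bax, H2-Eb1 and Ms4a6d. Their correlations with Cd3e were 0.59 to 0.73 in section 1 and 0.40 to 0.41 in section 2, where Cd3e had 146 UMIs in all. Section 2 thus set their order, and Cd74, with 0.73 and 0.38, ranked below Bax, with 0.59 and 0.40. The genes most like Cd274 were Ctsz, Ifit2, C1qb, Arhgap45 and H2-K1, with 0.66 to 0.71 in section 1 and 0.66 to 0.70 in section 2. Among these, H2-Aa and H2-Eb1 encode MHC class II chains, H2-K1 encodes an MHC class I chain, Ifit2 is an interferon-induced gene and C1qb is a complement gene of macrophages. The tiles of a section span tumor and neural tissue and share a library, so the values are descriptions with no test.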

How the data were processed

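RNA was measured in 2 cerebellar sections of 5 µm (1 per mouse, group HP) with Visium CytAssist probes for formalin-fixed tissue. Per the labels, the authors processed the reads with Space Ranger 2.1.1 on mm10, and they deposited raw UMI counts per gene and spot. From these counts, spots under tissue with at least 500 UMIs and 10 genes were kept. Each spot's log2(counts per 10000 UMIs + 1) of neural, epithelial and matrix markers gave a score, averaged over the 6 neighbors and split by Otsu's threshold within a section; tumor pieces had 50 or more spots, and the edge was every spot within 2 steps of the other side. The authors' own clusters were not used here. The sections share 3096 barcodes, which are array positions and not cells. Counts were summed per section and region into 6 libraries, since spots are not replicates, and fitted with edgeR 4.0.16 (quasi-likelihood, TMM, filterByExpr, section as block, 2 residual degrees of freedom), with p-values adjusted by Benjamini-Hochberg over all genes tested. The 2 mice limit the precision. With the section as a block, p-values measure how much the differences between regions varied between these sections.

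Replicate numbers are those of the labels, and the numbers pair the regions because each section holds the 3 regions of 1 mouse; the common dispersion was 0.0905 with the section as a block and 0.151 without it. Ratios within a section used a pseudocount of 0.5 CPM. Poisson and binomial intervals are exact, at 95%, and cover counting error only. To compare shares of spots, each spot was thinned to 5000 UMIs, which left out 9, 1 and 658 tumor, edge and neural spots in section 1 and 10, 20 and 337 in section 2. Named genes were all 10 members, called genes of the wider lists up to the 8 with the smallest adjusted p per comparison, and the 5 genes most like Cd3e and Cd274. The members and lists were chosen with earlier results of these data known. The test was checked on simulated data. The simulated region changes were the same in both sections, so the check does not cover ratios that differ between sections. Alternatives were DESeq2 1.42.0, relative log expression factors, library size alone, no filter, no block, other borders, edges of 1 and 3 steps and a minimum of 1000 UMIs.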

Additional observations from a re-analysis of the deposited data

Results flagged for a closer look

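The 62 spots of section 2 that lay in small pieces outside the 3 regions entered no comparison. They held 27 UMIs of the 10 genes among 582945 UMIs, or 46.3 CPM without TMM scaling, above the 3 UMIs that a count of 0 allows. Cd4 had 6 of these UMIs, Cd274 had 5, Foxp3 had 4 and Cd3e had 1. No group held enough sections to search for a section far from the others.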

How the results depend on the processing

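Values rest on 2 sections, and low counts limit section 2, where 5 of the 10 genes were at or below the olfactory receptor level in the tumor. Pairing by section is in the design. With no replicate block the wider lists had 8 genes called between tumor and neural tissue against 14, beside 4427 of all genes against 5907, and no member call changed. DESeq2 called 2 members between tumor and neural tissue against 0 and 24 wider genes against 14, beside 7275 of all genes against 5907. Of the wider genes it called 14 against 7 between edge and neural tissue and 1 against 0 between tumor and edge. In the last comparison 1 was also called with an edge of 1 step, Cd276 in both. The Cd274 call between edge and neural tissue fell to 0 members with an edge of 3 steps (adjusted p = 0.0538), a border from the neural score alone (0.0517), a border without averaging over neighbors (0.0557) and a border from k-means (0.139), all by edgeR. The border from k-means called 0 wider genes there and 0 of all genes.

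Uncalled values near 0 changed sign. Cd8a for edge against neural tissue was 0.076 and 0.10 with edges of 1 and 3 steps, 0.24 with the neural score alone, 0.12 without averaging and 0.57 without the block. Foxp3 there was -0.059 with the neural score alone. Between tumor and edge, Gzmb was -0.33 with an edge of 1 step, -0.00026 with a minimum of 1000 UMIs and -0.25 with library size alone, Prf1 was -0.085 and -0.097 with an edge of 1 step and with library size alone, and Ctla4 was -0.023 with library size alone. Pdcd1 there was 0.037 with an edge of 3 steps, 0.042 with a minimum of 1000 UMIs, 0.19 with the neural score alone, 0.22 with k-means, 0.10 without averaging, 0.024 with DESeq2, 0.036 with relative log expression factors and 0.53 without the block. Lag3 between tumor and neural tissue was 0.080 without the block. The cause was not tested. Library size alone moved the median over all genes between tumor and neural tissue on the log2 scale from -0.12 to -0.44; it called 1944 of 6870 genes higher there, against 2884 of 5907 with TMM. Over all genes DESeq2 called 3912 between edge and neural tissue against 1627, and between tumor and edge 1853 genes, 478 of them higher, against 600 with 31 higher; library size alone called 954 there. Leaving out a section gives the other section's ratio, which for Cd274 at the edge ranged from 2.23 to 3.07 with no test.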

Other observations

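The 6 B and plasma cell markers, among them Cd79a and Jchain, summed to 163 CPM in the tumor, 35.2 CPM at the edge and 18.8 CPM in the neural tissue of section 1. In section 2 they summed to 14.0, 32.0 and 14.3 CPM. All 6 were above the 95th percentile of the olfactory receptor genes in the tumor of section 1 and 3 were in the tumor of section 2. The 7 dendritic cell markers, among them Flt3 and Clec9a, summed to 130, 102 and 64.3 CPM in section 1 and to 40.9, 91.5 and 87.9 CPM in section 2. Both sums were highest in the tumor of section 1 and lower in the tumor than at the edge of section 2, but Flt3 and Zbtb46 of the dendritic cell list were highest in the neural tissue of both sections. The sum of the 5 endothelial markers, among them Pecam1, was highest at the edge of both sections, at 340 and 495 CPM against 271 and 388 CPM in the tumors and 192 and 206 CPM in the neural tissue, whereas Flt1 was highest in the neural tissue of section 1 (74.7 CPM) and in the tumor of section 2 (123 CPM). The difference between the sections was not tested.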
